A study of Mus musculus with 8 samples.

Results

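The nuclei described here carried the RNA of 2 alveolar programmes at once, that of type I cells and that of transitional cells. For each of the 7168 nuclei with at least 1000 UMIs (unique molecular identifiers, 1 for each RNA molecule read), the UMIs per 10000 were summed over 5 genes of each of 3 programmes. The type I genes were Ager, Hopx, Rtkn2, Clic5 and Lmo7, the transitional genes Krt8, Krt18, Krt19, Cldn4 and Sfn, and the type II genes Sftpb, Napsa, Abca3, Lamp3 and Slc34a2. Members were chosen by these sums. A nucleus was taken when it lay in the top 25% of both the type I and the transitional sum, outside the top 25% of the type II sum, with under 5 Sox9 UMIs and under 50 UMIs per 10000 of the airway genes Scgb3a1 and Bpifa1 together. This gave 526 double-programme nuclei, 7.34% of the total (exact 95% binomial interval 6.74 to 7.97). They are compared with 1228 type I-only nuclei, in the top 25% of the type I sum alone, and 1167 transitional-only nuclei, in the top 25% of the transitional sum alone, after the same Sox9 and airway limits.

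The nuclei came from mouse alveolarspheres, spheres of alveolar epithelium grown from type II cells (ATII) of young and old animals without serum or feeder cells. Cultures were infected on day 9 with AAV9_Cre, the control, or with AAV9_Sox9Cre, which makes the cells overexpress the transcription factor Sox9 together with Cre. For 4 further days they were kept in ATII differentiation medium, which favours type I cells, and live tdTomato+ cells were sorted, so that every group carried Cre and the reporter and was exposed to the same medium. Each nucleus gave both RNA and an ATAC profile of its open chromatin, and the labels list 8 samples, 2 of each virus and each assay. The barcodes of the deposited nuclei carry 4 prefixes, and each prefix was taken here as 1 library, named A, B, C or D. That a prefix stands for a library is an assumption. The labels do not say which virus or which age a library came from. No comparison of Sox9-Cre with Cre, or of young with old, was therefore possible, the pooled nuclei count as 1 sample, and values are given per library with no test between groups. Whether samples came from separate animals is not stated. Intervals are 95% intervals that cover counting error only.

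Type II cells make surfactant, the film that keeps air sacs open, and also serve as the progenitors of type I cells, the thin cells across which gas is exchanged. On the way to type I, after injury and in culture, cells pass through a transitional state rich in keratins and claudins, with genes of stress, adhesion and the cytoskeleton. Ager encodes a receptor that sits on the basal membrane of type I cells, Krt8 and Krt19 encode keratins of simple epithelia, and Cldn4 encodes a claudin that tightens cell junctions.

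The promoters of 3 genes on which the results turn are shown because accessibility differed at Cldn4 and Ager and because F3 had one of the largest RNA differences. Each line holds the 250 bases upstream of the RefSeq start, from the GRCm38.p6 table, 5′ to 3′ on the strand of the gene. Capitals mark the AP-1 letters TGANTCA, searched on both strands, which do not overlap each other here. AP-1 is the dimer of Fos and Jun family proteins. The windows are chr5:134946935-134947184 on the minus strand for Cldn4, chr3:121723287-121723536 on the plus strand for F3, which encodes tissue factor, and chr17:34597600-34597849 on the plus strand for Ager.
Cldn4: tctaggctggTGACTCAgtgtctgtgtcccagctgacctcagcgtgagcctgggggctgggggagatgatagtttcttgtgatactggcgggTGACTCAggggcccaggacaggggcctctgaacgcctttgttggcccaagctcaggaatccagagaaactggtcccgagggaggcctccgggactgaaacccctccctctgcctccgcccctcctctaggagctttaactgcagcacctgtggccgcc
F3: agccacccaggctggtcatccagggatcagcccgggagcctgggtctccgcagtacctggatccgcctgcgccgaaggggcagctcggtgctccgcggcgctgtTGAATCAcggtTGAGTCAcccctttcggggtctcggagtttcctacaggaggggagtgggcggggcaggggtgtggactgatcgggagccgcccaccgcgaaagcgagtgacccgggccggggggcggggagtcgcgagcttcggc
Ager: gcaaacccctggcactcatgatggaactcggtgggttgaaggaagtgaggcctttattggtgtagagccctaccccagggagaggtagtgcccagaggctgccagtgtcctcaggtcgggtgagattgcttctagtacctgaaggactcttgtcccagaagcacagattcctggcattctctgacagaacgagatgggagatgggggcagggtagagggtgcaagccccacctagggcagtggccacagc
The letters occur 2 times in the Cldn4 window, 2 times in the F3 window and not in the Ager window. Cldn4 and F3 were the 2 of 23 windows read for named genes that held them. The windows of Krt8, Krt18, Sfn, Tpm2, Areg, Krt7 and Tnfrsf12a, also transitional genes, held none. They occur in 6.75% of the 32851 promoter windows of this length in the table. The table held no window for Krt19 and Rtkn2.

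The double-programme nuclei were found in every library but in unequal shares. They numbered 158 of 1253 nuclei (12.6%) in library A, 63 of 760 (8.29%) in B, 178 of 3228 (5.51%) in C and 127 of 1927 (6.59%) in D. The share in A lay above the intervals of the other 3 libraries. Of the 1792 nuclei in the type I top 25%, 29.7% were also in the transitional top 25%, against 23.4% of all other nuclei. The same order held in A (34.3% against 24.9%), C (27.8% against 19.4%) and D (30.2% against 27.6%), and the opposite order in B (25.3% against 29.4%). Type I and type II programmes overlapped in 23 nuclei, transitional and type II in 13, and all 3 in 0. The other nuclei in the comparison above thus hold most of the type II top 25%, few of which had the transitional programme. Outside the type II top 25%, after the Sox9 and airway limits, 526 double-programme nuclei stood beside 1228 type I-only nuclei. There 1167 transitional-only nuclei stood beside 2085 nuclei in no top 25%. In these nuclei the transitional top 25% was less frequent inside the type I top 25% than outside, pooled and in every library. The Sox9 limit removed 6 nuclei with both programmes and the airway limit 0.

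Over all nuclei, the transitional programme was most frequent at intermediate type I sums rather than at the highest. When all nuclei were ordered into 10 equal bins by type I sum (deciles, with 1 the lowest), the share in the transitional top 25% was 18.4% in decile 1 and 13.1% in decile 2. It was 36.2% in decile 7, 37.1% in decile 8 (interval 33.6 to 40.8), 31.7% in decile 9 and 23.0% in decile 10 (19.98 to 26.3). The share in the type II top 25% was 59.3% in decile 2, 44.8% in decile 4, 6.42% in decile 7 and 0.558% in decile 10. In all, 13 nuclei were in both the type II and the transitional top 25%. Type II nuclei thus lower the transitional share of the low deciles. The rise from decile 2 to decile 8 therefore does not show a peak among the other nuclei, for which shares by decile were not computed. The sums used here chose the nuclei, so the shares are a description.

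**Figure D1:**
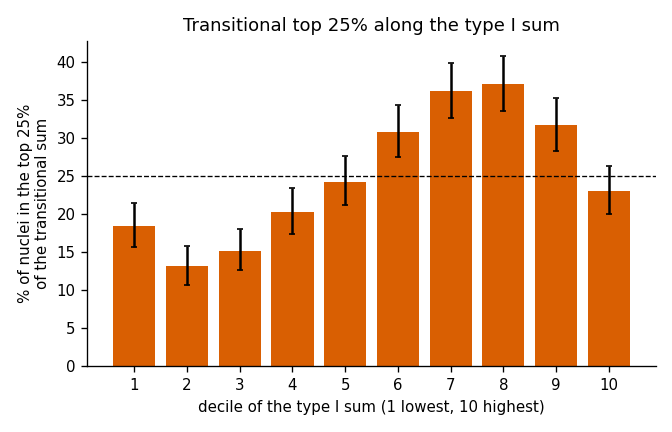
Bars give the percentage of nuclei in the top 25% of the transitional sum within each decile of the type I sum, with exact 95% binomial intervals, and the dashed line marks 25%. The bars are tallest in deciles 7 and 8, at 36.2% and 37.1%, and decile 10 stands at 23.0%. Nuclei of the type II top 25%, frequent in the low deciles, are included.

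Membership was graded, with no gap at the thresholds. The type I threshold was 80.1 UMIs per 10000 and the transitional threshold 38.4. The member with the lowest type I sum had 80.2 and the nucleus next below the threshold 79.8, and for the transitional sum the values were 38.5 and 38.1. Of the members, 149 (28.3%) lay within 10% of either threshold. The median type I sum was 106 in the double-programme nuclei, 117 in type I-only and 41.2 in transitional-only nuclei. The median transitional sum was 63.8, 15.2 and 67.3 in the same order, and the median type II sum 5.67, 8.26 and 4.08.

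**Figure D2:**
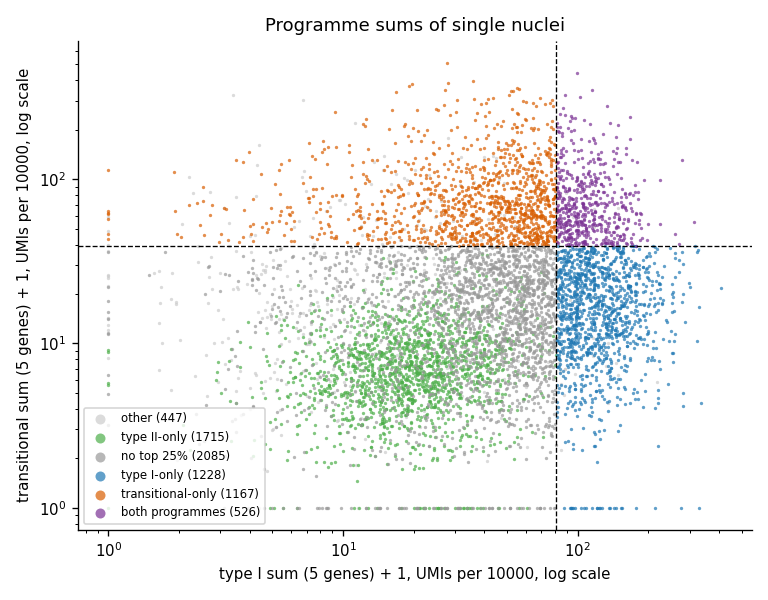
Each point is 1 nucleus, with its type I sum plus 1 on the x axis and its transitional sum plus 1 on the y axis, both in UMIs per 10000 on log axes, and dashed lines mark the thresholds. The 526 double-programme nuclei fill the upper right corner without a gap from the 1228 type I-only and 1167 transitional-only nuclei.

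The label was checked on 5 defining markers, of which the rule used all, so these values are a description. Ager stood at 59.6, 70.5, 50.9 and 60.6 UMIs per 10000 in the double-programme nuclei of libraries A, B, C and D, 58.5 pooled, against 70.6 in type I-only and 16.5 in transitional-only nuclei. Krt8 stood at 32.3, 35.0, 36.1 and 39.6, 35.9 pooled, against 7.30 and 36.9. Krt19 was at 18.01 pooled against 4.13 and 16.3. Both keratins thus lay close to the transitional level in every library, and Ager lay nearer to the type I level. Cldn4 was intermediate, at 4.41, 4.48, 3.69 and 4.84 (4.29 pooled) against 0.762 in type I-only and 7.37 in transitional-only nuclei.

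Rtkn2, a marker gene of type I cells, went against the label. It stood at 0.642, 0.677, 0.440 and 0.875 UMIs per 10000 in the 4 libraries, 0.641 pooled from 425 UMIs, against 2.57 in type I-only and 0.129 in transitional-only nuclei. No library of double-programme nuclei reached the lowest library of type I-only nuclei (2.16). A UMI of Rtkn2 was present in 27.9% of them, against 57.8% of type I-only and 9.43% of transitional-only nuclei. The type I side of these nuclei is therefore named here by Ager, Hopx, Clic5 and Lmo7, with Rtkn2 low.

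Co-detection was counted on genes of the rule, so it follows in part from the choice of nuclei and is a description. At least 1 UMI each of Ager, Krt8, Krt19 and Cldn4 was found in 449 of 526 double-programme nuclei (85.4%, interval 82.05 to 88.3). The same 4 genes were found together in 31.6% of type I-only nuclei, 80.6% of transitional-only nuclei and 7.46% of the 1715 type II-only nuclei. Median depths were 11629.5, 9704.5, 11971 and 12511 UMIs in that order, and the level of free RNA was not measured. With Rtkn2 added, all 5 markers were found in 119 double-programme nuclei (22.6%). They were found in 17.1% of type I-only, 8.14% of transitional-only and 0.583% of type II-only nuclei. Detection of all 5 was thus not particular to the double-programme nuclei, and the type I-only nuclei were read at lower depth. Doublets were not removed. The doublet caller Scrublet marked 5 nuclei in all, 1 of them a member, and is taken as not having worked. Of the double-programme nuclei, 3.99% lay in the highest 5% of its scores, against 3.26% of type I-only and 4.88% of transitional-only nuclei. The median score was 0.0603 in double-programme, 0.0526 in type I-only and 0.0569 in transitional-only nuclei, and it was highest in the double-programme nuclei in each library. The part of doublets in the results was not tested. Libraries shared 19 barcodes, carried by 2 members.

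Among themselves the double-programme nuclei varied most in the less abundant genes. Ager made up 52.5% of their type I UMIs and was the highest of the 5 type I genes in 79.3% of them. Lmo7 made up 26.9%, Clic5 10.5%, Hopx 9.49% and Rtkn2 0.575%. On the transitional side Krt8 made up 43.5%, Krt18 25.9%, Krt19 21.8%, Cldn4 5.20% and Sfn 3.62%. Per nucleus, Ager ran from 39.8 UMIs per 10000 at the 25th percentile to 77.9 at the 75th. Cldn4 was without a UMI in 13.9% of them, Sfn in 23.6% and Hopx in 3.61%. A Sox9 UMI was present in 59 of them (11.2%), against 10.3% of type I-only and 23.6% of transitional-only nuclei. The Sox9 level in the 4 libraries was 0, 0.0106, 0.272 and 0.132 per 10000, so nearly all of it lay in C and D.

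Depth and RNA make-up differed between the classes and are given here once. The double-programme nuclei held 6632158 RNA UMIs and 5522358 ATAC counts in peaks in all, with median ATAC counts from 2859 in A to 16175 in D, and 73 of them had under 1000. The median share of ribosomal protein genes was 7.12% of UMIs, between type I-only (5.53%) and transitional-only nuclei (8.72%). The median share of genes of at least 100 kb was 13.9%, against 17.3% and 12.4%, and Malat1, a nuclear RNA, stood at 417, 523 and 418 per 10000. Mitochondrial shares were 5.58%, 5.41% and 5.51%. The part of the ribosomal share in the RNA differences was looked at by weighting, and that of the other measures was not tested.

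Genes other than the 15 programme genes, Scgb3a1, Bpifa1 and Sox9 were then compared, as a description, since the same RNA chose the classes. A gene is called higher or lower when its pooled level differed at least 1.5-fold, in the same direction in each of the 4 libraries, with at least 50 UMIs in the 2 classes. Against type I-only nuclei 11658 genes were compared, of which 655 (5.62%) were higher and 1165 (9.99%) lower in the double-programme nuclei. Against transitional-only nuclei 12059 were compared, of which 379 (3.14%) were higher and 757 (6.28%) lower. The median log2 fold over all genes was -0.07 and -0.06.

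Of the other genes known from type I cells, 25 were listed and all but Igfbp2 had a UMI in the double-programme nuclei. As a group they lay between the 2 comparison classes, nearer to type I-only nuclei. Against type I-only nuclei 0 of 24 were higher and 11 lower, and the median log2 fold was -0.52. Against transitional-only nuclei 17 of 23 were higher and 0 lower (median 0.79). The summed list stood at 133.5 UMIs per 10000 (130.0 to 138.4 over the libraries), against 154.5 and 78.4. The members of the list did not move as one.

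The genes not called lower than in type I-only nuclei included several membrane proteins and channels, grouped here after their values were seen. Aqp5, the water channel, stood at 20.6, 25.6, 18.8 and 20.3 per 10000 in the 4 libraries, 20.6 pooled, against 17.0 in type I-only and 12.0 in transitional-only nuclei (1.21-fold and 1.72-fold). In each library it was the highest of the 3 classes, though the difference from type I-only nuclei was under 1.5-fold. Cldn18, the alveolar claudin, was at 20.1 against 20.4 and 11.6, and Emp2, a tetraspan membrane protein gene, at 26.5 against 23.0 and 16.8. The G protein-coupled receptor gene Gprc5a was at 21.9 against 17.98 and 13.7. Of the epithelial sodium channel subunits, Scnn1b stood at 1.02 against 1.52 and 0.363 (2.82-fold over transitional-only) and Scnn1g at 1.34 against 1.87 and 0.574 (2.34-fold). Both channel genes were higher than in transitional-only nuclei in every library, and both lay below type I-only nuclei by under 1.5-fold.

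The 11 genes called lower than in type I-only nuclei were of mixed function. Limch1, which encodes an actomyosin regulator, stood at 4.11, 4.63, 4.14 and 4.60 per 10000 in the 4 libraries (4.32 pooled), against 12.7 in type I-only and 1.72 in transitional-only nuclei (0.341-fold and 2.51-fold). Sema3a, a secreted guidance cue, stood at 1.26, 1.44, 1.51 and 1.82 (1.51 pooled) against 4.44 and 0.355 (0.341-fold and 4.27-fold). For both genes the libraries of the double-programme nuclei overlapped neither comparison class. Col4a3 and Col4a4, basement membrane collagen chains whose genes lie side by side, were at 3.88 and 3.90, against 7.54 and 7.56 in type I-only and 1.89 and 1.94 in transitional-only nuclei. Cav1, the main protein of caveolae, was at 0.695 against 1.51 and 0.290, and Akap5, a kinase anchor, at 6.59 against 10.5 and 3.17. Col4a3, Col4a4, Cav1 and Akap5 were lower than in type I-only and higher than in transitional-only nuclei in each library. Cav2, the partner of Cav1, was at 1.58 against 2.004 and 1.015 and was not called against type I-only nuclei. The other genes called lower than in type I-only nuclei were Gramd2, Sema3e, Pmp22, Egfl6 and Pdpn. Pdpn rested on 72 UMIs, and without library C it was not called. Sec14l3, outside this list, had the highest fold over transitional-only nuclei among called genes found in at least 20% of the double-programme nuclei, 4.95-fold, at 1.47 against 2.79 and 0.296.

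Genes lower than in type I-only nuclei were often long. The median log2 fold against type I-only nuclei was 0.14 over 1280 genes under 5 kb and -0.30 over 1529 genes of at least 100 kb. Against transitional-only nuclei it was -0.06 and -0.04 for the same lengths. When type I-only nuclei were weighted within each library to the ribosomal share of the double-programme nuclei, the 2 values against type I-only nuclei were 0.02 and -0.16. Under that weighting the same 11 of 24 type I genes were called lower, and the median log2 fold was -0.46.

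Of the other genes of the transitional state, 29 were listed. Against type I-only nuclei 22 of 27 were higher and 0 lower (median log2 fold 1.39), and against transitional-only nuclei 2 of 27 were higher and 9 lower (median -0.28). The summed list stood at 203.8 per 10000 (200.2 to 206.9 over the libraries), against 118.1 in type I-only and 238.9 in transitional-only nuclei. With type I-only nuclei weighted to the ribosomal share, 21 of 27 were higher.

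The cytoskeletal and keratin genes are described first. Tpm2, a tropomyosin, stood at 2.23, 1.77, 3.13 and 1.98 in the 4 libraries, 2.40 pooled, against 0.299 in type I-only and 2.96 in transitional-only nuclei. Its 8.02-fold difference from type I-only nuclei was the largest among genes called higher and found in at least 20% of the double-programme nuclei, and its order against transitional-only nuclei changed between libraries. Krt7, a simple-epithelial keratin, was at 18.8 against 7.72 and 14.96 (2.43-fold and 1.254-fold). Of 26 actin and tropomyosin genes, 14 of 23 compared were higher than in type I-only nuclei and 0 lower, and 0 of 26 were higher and 5 lower than in transitional-only nuclei. Actb was at 65.6 against 39.7 and 56.5, Actg1 at 31.97 against 15.2 and 31.3, and Tpm4 at 5.26 against 2.10 and 5.48. Actb lay above transitional-only nuclei in each library, by under 1.5-fold, while Actg1 and Tpm4 changed order between libraries.

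Ligands, receptors and tissue factor were read next. Areg, an EGF receptor ligand, stood at 6.37, 7.29, 5.61 and 8.15, 6.71 pooled, against 1.51 in type I-only and 6.69 in transitional-only nuclei (4.43-fold and 1.00-fold). Ereg, another such ligand, was at 0.513 against 0.120 and 0.429 (4.26-fold over type I-only). F3, whose promoter is printed above, stood at 6.06, 5.21, 4.83 and 5.99, 5.51 pooled, against 0.766 and 6.89 (7.19-fold and 0.7998-fold). No library of type I-only nuclei exceeded 1.89 for Areg or 1.02 for F3, so the classes were far apart. Plaur, the urokinase receptor, was at 0.710 against 0.107 and 0.988, and Tnfrsf12a, the TWEAK receptor, at 6.19 against 2.01 and 6.16. The receptor Egfr itself was called lower than in both comparison classes.

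The 9 transitional genes called lower than in transitional-only nuclei included stress and matrix genes. Gdf15, a stress cytokine, stood at 0.310, 0.497, 0.344 and 0.639, 0.434 pooled, against 0.249 in type I-only and 1.49 in transitional-only nuclei (0.291-fold of transitional-only). Fn1, fibronectin, was at 0.410 against 0.0969 and 1.33 (0.308-fold), and Nupr1, a stress-induced chromatin protein, at 3.46 against 1.29 and 10.2 (0.338-fold). Cd44, a hyaluronan receptor, was at 0.673 against 0.1998 and 1.29 (0.523-fold). In each library these 4 genes lay below transitional-only nuclei and above type I-only nuclei. The difference of Gdf15 from type I-only nuclei was under 1.5-fold without library D. Edn1, Sprr1a, Clu and Ptgs2 were among the others called lower than in transitional-only nuclei. The call for Ptgs2 was lost without library B or without library D. Cdkn1a, a cell cycle inhibitor and p53 target, stood at 15.2 against 15.3 and 16.7 and was called in neither direction. The 2 genes called higher than in transitional-only nuclei were Hbegf, an EGF receptor ligand, and Cdkn2b, which was at 1.98 against 1.32 and was not called without library C.

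**Figure D3:**
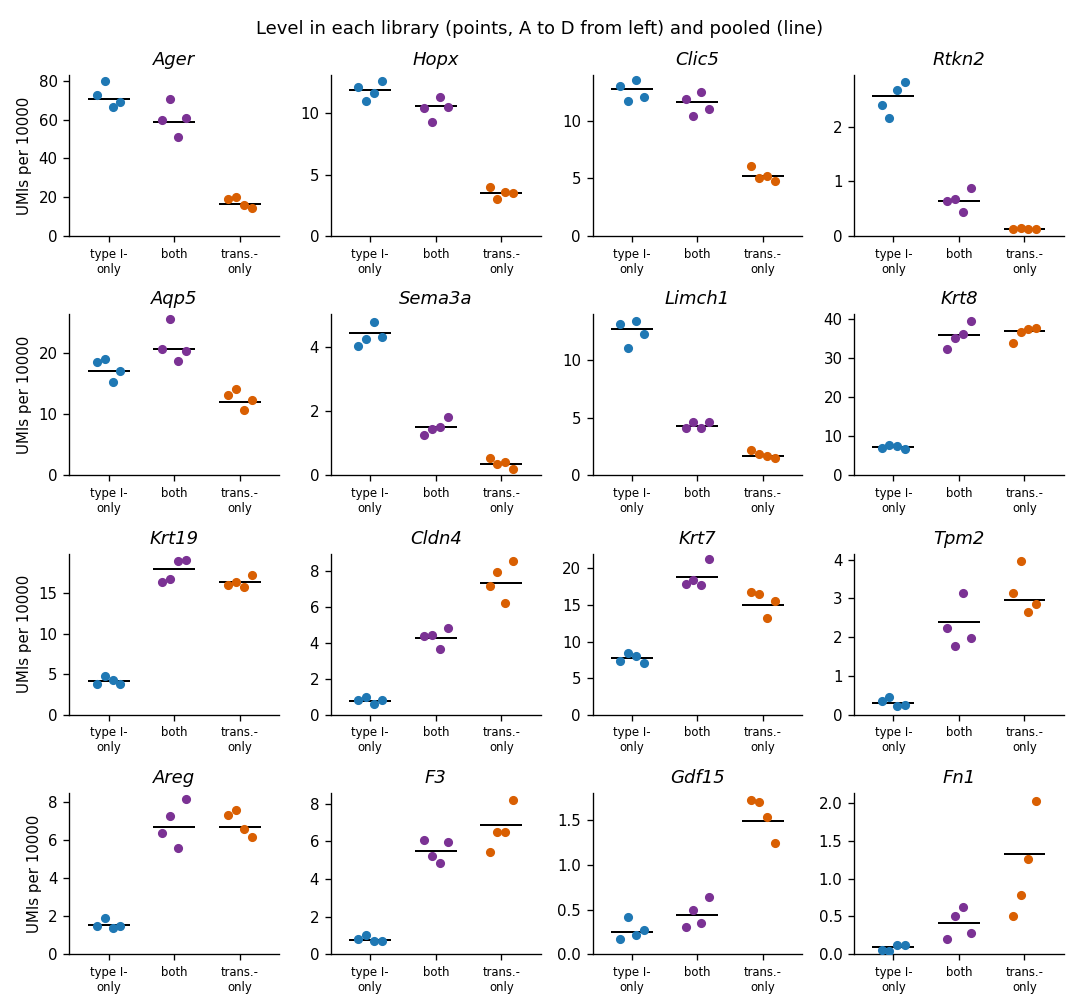
Points give the level of 16 genes in UMIs per 10000 in libraries A to D and lines the pooled level, in double-programme, type I-only and transitional-only nuclei. Ager and Aqp5 of the double-programme nuclei lie near or above type I-only nuclei, Rtkn2, Sema3a and Limch1 lie between the classes, and Krt8, Tpm2, F3 and Areg lie near transitional-only nuclei.

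**Figure D4:**
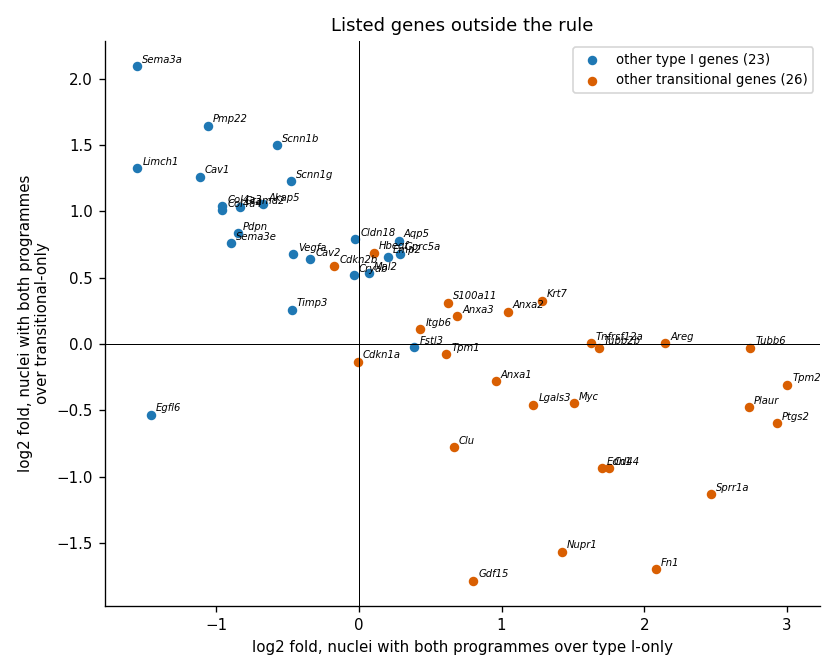
Each point is 1 gene of the other type I or the other transitional list (1 transitional gene is not shown), with the log2 fold of double-programme over type I-only nuclei on the x axis and over transitional-only nuclei on the y axis. Type I genes lie mostly left of 0 and above 0 (medians -0.52 and 0.79), and transitional genes mostly right of 0 and below 0 (medians 1.39 and -0.28).

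Few genes were called, at 1.5-fold or more, above both or below both comparison classes. Of 11483 genes compared with both, 19 (0.165%) were called higher and 105 (0.914%) lower than in either. Genes past 1 of the classes by under 1.5-fold, such as Aqp5 and Actb, are not in these counts. Ptgr1, which encodes a reductase of prostaglandins and leukotrienes, stood at 2.13, 2.87, 2.10 and 2.48, 2.32 pooled, against 1.13 in type I-only and 1.37 in transitional-only nuclei. Its libraries overlapped neither class. Tmem176b, a membrane protein gene, stood at 11.3, 13.6, 11.1 and 10.4, 11.3 pooled, against 7.46 and 7.11, but its fold over type I-only nuclei was under 1.5 without library A or without library C. Lower than in both were Id2, a target of BMP signalling, at 0.531 against 0.956 and 0.896, and Zfp704, a zinc finger gene, at 0.409 against 0.899 and 0.732. Fos, a subunit of AP-1, was at 0.678 against 1.59 and 1.07, and its call against transitional-only nuclei was lost without library D.

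Pathway genes gave the following counts, some of them near the shares over all genes. Those shares were 5.62% higher and 9.99% lower against type I-only nuclei, and 3.14% and 6.28% against transitional-only nuclei. Of 15 BMP pathway genes compared with type I-only nuclei 2 (Bmp2 and Bmp6) were higher and 6 lower, among them Id1, Id2 and Id3. Against transitional-only nuclei 0 of 15 were higher and 3 lower (Bmp2, Bmp6 and Id2). The call of Id1 was lost without library B, C or D. Of 10 AP-1 genes 3 were higher than in type I-only nuclei (Atf3, Fosl1 and Maff) and 1 lower (Fos), and 0 were higher and 4 lower than in transitional-only nuclei (Atf3, Fos, Fosb and Jun). Of the YAP target list, which holds F3, 5 of 20 were higher and 2 lower than in type I-only nuclei, and 0 of 19 were higher and 4 lower than in transitional-only nuclei. Of 27 lung epithelial transcription factors 2 were higher (Ehf and Grhl1) and 4 lower than in type I-only nuclei, Foxp2 among the latter at 3.24 against 6.62. Against transitional-only nuclei 1 of 27 was higher (Nkx2-1) and 3 lower, Ehf among the latter. Nkx2-1, the master factor of lung epithelium, was at 3.75 against 4.81 and 2.42. Of 20 p53 targets 2 were higher and 0 lower than in type I-only nuclei. Against transitional-only nuclei 0 of 20 were higher and 3 lower (Gdf15, Perp and Trp53inp1).

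Markers of other cell types are given as list sums, and those called higher than in type I-only nuclei also singly. The summed basal list stood at 0.0106 UMIs per 10000 with Krt5, Krt14, Krt15 and Ngfr at 0, the mesenchymal list at 0.0196, and the endothelial list at 0.0709 with Kdr and Cldn5 at 0. The immune list stood at 0.110 with Ptprc, Itgam, Marco, Adgre1 and Tyrobp at 0, and the ciliated list at 0.366. The neuroendocrine list stood at 0.229 with Calca and Chgb at 0. The airway secretory list had the highest of these sums, 1.41, against 1.45 in type I-only and 1.70 in transitional-only nuclei. Its genes Muc5ac and Ltf were at 0, and the others are not given singly. The mesothelial list stood at 1.22 (1.01 to 1.504 over the libraries), against 0.637 in type I-only and 1.49 in transitional-only nuclei, with Wt1, Upk3b and Lrrn4 at 0. From these lists 4 genes were called higher than in type I-only nuclei, namely Msln at 1.07 against 0.613, Upk1b at 0.152 against 0.0242, Uchl1 at 0.228 against 0.0522 and Cd68 at 0.0467 against 0.0242. In transitional-only nuclei they stood at 1.34, 0.147, 0.227 and 0.128, and none was called higher against these. Their part in the results was not tested. Of the type II markers outside the rule, Sftpc, surfactant protein C, was at 94.7 against 205 in type I-only and 99.1 in transitional-only nuclei, and 0 of 17 such markers were higher than in type I-only nuclei and 6 lower. Sftpc is abundant in these cultures, and free RNA and own transcripts cannot be told apart at this level.

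Open chromatin was not used by the rule and was read from the same nuclei. Peaks at least 1.5-fold more open in type I-only than in transitional-only nuclei, or the reverse, were chosen in library C and then read in A, B and D. The 10794 type I peaks held 757, 826 and 817 counts per 10000 in the double-programme nuclei of A, B and D, 801 pooled, against 959 in type I-only and 598 in transitional-only nuclei. That places them 56.3% of the way from transitional-only to type I-only nuclei, with 45.2%, 65.3% and 58.3% in the 3 libraries. Nuclei in no top 25% stood at 796 on the same peaks, the same level as the double-programme nuclei. The 14746 transitional peaks held 1003, 952.5 and 1049 counts per 10000, 1026 pooled, against 709 in type I-only and 1264 in transitional-only nuclei. Here the position was 57.0% of the way from type I-only to transitional-only nuclei (61.6%, 48.3% and 57.5%), and nuclei in no top 25% stood at 894. Type II-only nuclei stood at 878 on the type I peaks, above the double-programme nuclei, and at 664.5 on the transitional peaks, so the first set is not open in type I nuclei alone. In each of the 3 libraries the double-programme nuclei thus lay between both classes on both peak sets.

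**Figure D5:**
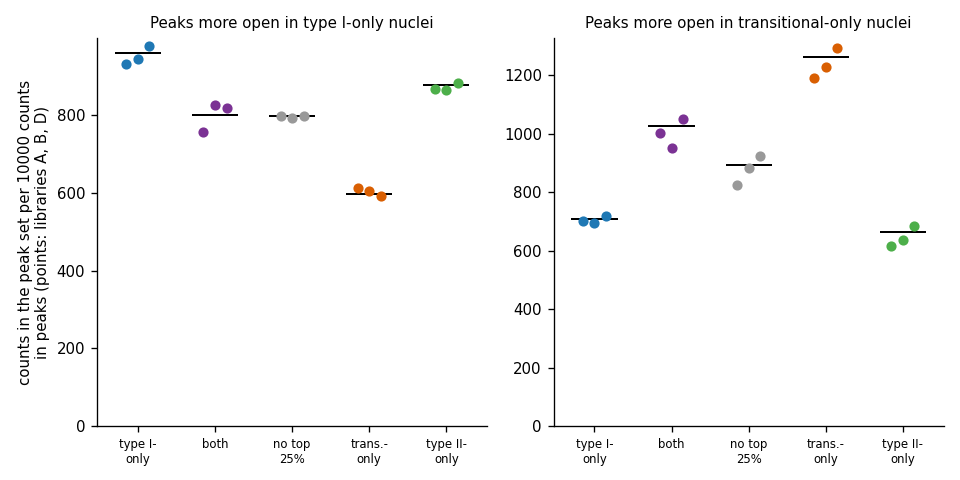
The 2 panels give counts per 10000 in the type I peaks and in the transitional peaks, chosen in library C, for libraries A, B and D and 5 classes of nuclei. Double-programme nuclei lie between type I-only and transitional-only nuclei in both panels, and on the type I peaks they lie at the level of nuclei in no top 25% (801 and 796 pooled).

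RNA gave a different balance when it was read in the same way. The 1684 genes chosen as type I in library C, with the genes of the rule left out, placed the double-programme nuclei 33.9% of the way from transitional-only to type I-only nuclei. The 2044 genes chosen as transitional placed them 56.4% of the way from type I-only to transitional-only nuclei. On the first set type II-only nuclei stood at 2240 and nuclei in no top 25% at 1640 UMIs per 10000, against 1190 in double-programme, 1783 in type I-only and 886 in transitional-only nuclei, so these genes are not particular to type I nuclei. On the second set the values were 1170 and 1417, against 1734, 1196 and 2150. The RNA positions come from the readout that chose the nuclei and are given beside the accessibility for its scale only.

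At the genes themselves accessibility was summed over peaks from 2000 bases before to 2000 after the gene, and a window was called when the counts stood at 5 to 4 or more in either direction, with at least 100 counts and 1 direction in all 4 libraries. Of 17597 windows compared with type I-only nuclei 669 (3.80%) were higher and 476 (2.71%) lower, and of 17756 compared with transitional-only nuclei 368 (2.07%) were higher and 532 (3.00%) lower. The Cldn4 window held 0.585, 0.441, 0.380 and 0.434 counts per 10000 in libraries A to D, 0.444 pooled from 245 counts, against 0.263 in type I-only and 0.581 in transitional-only nuclei. It was 1.69-fold higher than in type I-only nuclei (interval 1.42 to 1.99, and 1.55 to 1.88 over the libraries). The peak over the printed promoter, chr5:134946543-134947445, gave 1.63-fold (1.36 to 1.94). The Ager window held 0.387, 0.519, 0.427 and 0.493, 0.453 pooled from 250 counts, against 0.552 and 0.275, and was 1.65-fold higher than in transitional-only nuclei (1.40 to 1.94, and 1.21 to 1.90 over the libraries). The Ager promoter peak, chr17:34597408-34598244, gave 1.57-fold (1.27 to 1.93) but ranged from 0.747 to 1.97 over the libraries. Of the 5 type I windows of the rule, Ager was the 1 called. Of the 5 transitional windows, Cldn4 was called higher than in type I-only and Krt18 lower than in transitional-only nuclei. Of the 5 type II windows, Lamp3 was called higher than in type I-only nuclei (1.253-fold) and Napsa higher than in transitional-only nuclei (1.31-fold).

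Other genes differed less in accessibility than in RNA. The Krt8 window was at 0.473 against 0.508 and 0.558, and the Rtkn2 window, where RNA was 0.2495-fold that of type I-only nuclei, at 0.717 against 0.700 and 0.735. Limch1 was at 1.90 against 1.83 and 1.75, and Sema3a at 0.902 against 0.920 and 0.744. The F3 window was at 0.625 against 0.627 and 0.741. None of these 5 windows was called against either class. Of the other type I genes 0 of 25 windows were higher and 2 lower than in type I-only nuclei (Scnn1g and Spock2). Of the other transitional genes 1 of 29 was higher (Cd44) and 0 lower. Over all windows these shares were 3.80% higher and 2.71% lower. Against transitional-only nuclei 1 of 25 type I windows was higher (Col4a3) and 1 lower (Igfbp2). Of 29 transitional windows 0 were higher and 2 lower (Nupr1 and Sprr1a), where all windows gave 2.07% and 3.00%. Galnt18, which had 0.184-fold the type I-only RNA level, was at 0.947 against 1.19 in type I-only and 0.685 in transitional-only nuclei, lower than the first and higher than the second.

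Genes that differed in RNA more often had windows that differed the same way. Of the 655 genes with higher RNA than type I-only nuclei, 634 had a window, of which 59 were higher and 3 lower against type I-only nuclei. Of the 1165 with lower RNA, 1060 had a window, of which 8 were higher and 53 lower. Over all windows 3.80% were higher and 2.71% lower against type I-only nuclei. The median fold was 1.04 and 0.945, against 0.975 over all windows. Against transitional-only nuclei the genes with higher RNA had 28 higher and 3 lower windows of 347, and those with lower RNA 5 higher and 37 lower of 722. All windows gave 2.07% higher and 3.00% lower there. The median fold was 1.08 and 0.955, against 0.994 over all windows. Most genes in all 4 sets had windows that were not called.

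The AP-1 letters printed above were counted in the promoters of the genes that differed. Of genes compared with type I-only nuclei and present in the promoter table, 5.22% of 9111 held them, against 10.0% of the 510 higher and 6.18% of the 874 lower in the double-programme nuclei. Of 9432 genes compared with transitional-only nuclei 5.48% held them, against 8.03% of the 274 higher and 10.2% of the 569 lower. The letters GGAATG, which TEAD factors recognise, searched on both strands, occur in 12.6% of all windows of this length. They were held by 12.8% of the genes compared with type I-only nuclei, 16.1% of the higher and 14.0% of the lower. A match of letters is a description and not a binding site.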

How the data were processed

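Per the labels' protocols, sorted cells gave nuclei for a combined RNA and ATAC assay. The authors deposited whole-number counts, 1 matrix of RNA UMI counts per gene and nucleus and 1 of ATAC counts per peak and nucleus. Per the submitters' processing notes the tools were Signac 1.10.0, Seurat 4.3.0 and Cell Ranger 6.0.1, with builds GRCm38 and mm10. For the peak caller, the filter on nuclei and the treatment of doublets nothing is given in the sources used here. The deposited counts of both matrices were used as they are, without normalization by the authors. Files of multiplexing oligos were not used.

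From these counts, the nuclei of each class were pooled and levels computed per 10000 UMIs of the class, with Poisson intervals (exact), and fold intervals from the conditional binomial. Counts under 3 were set to 3 in folds. Shares have exact Clopper-Pearson intervals at 95%. No model was fitted and no p-value is given, because the 4 libraries could not be matched to samples. The genes named were those of the selection, the 8 highest and 8 lowest folds in each comparison among called genes detected (1 UMI or more) in 20% or more of the higher class, up to 10 genes above and below both classes, and up to 4 genes of each list by level. Some other listed genes were named after their values were seen. The 40 gene lists hold 552 genes, of which 551 were in the matrix. The nuclei, lists and comparisons were chosen with earlier results of these data known. RefSeq gave the positions of 82.6% of the 32285 genes. The rule for calling genes was also run on simulated Poisson counts. These held no variation between nuclei or libraries beyond counting, so that run does not cover such variation. Python 3.11.15, numpy 2.4.6, scipy 1.17.1, pandas 2.3.3 and scanpy 1.11.5 were used. Alternatives changed the cut on the sums, the depth, the gene minimum, the peaks and the weighting of the comparison nuclei, and each library was left out in turn. A few listed genes were counted with their lists and are not reported here by name.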

Additional observations from a re-analysis of the deposited data

How the results depend on the processing

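The counts and list sums below moved in size only, while some single genes crossed from one side of transitional-only nuclei to the other. The peak positions stayed between both comparison classes. On type I peaks the position fell from 56.3% to 40.76% with Ager left out of the type I sum, nearer to transitional-only than to type I-only nuclei. With Ager left out of the type I sum, Ptgs2 went from 0.662-fold to 1.042-fold, Mrc2 from 2.397 to 0.936, Rbpjl from 1.68 to 0.963 and F3 from 0.7998 to 1.043, and Areg, at 1.003, ranged from 0.894 to 1.29 over all alternatives. The share of nuclei with both programmes, 7.34%, was 8.943% with nuclei thinned to 1000 UMIs, 4.283% with the top 20%, 13.69% with the top 1 in 3, 6.515% with 0 Sox9 UMIs, and 6.221% to 8.832% on leaving out 1 library. With at least 200 UMIs per gene, 436 genes were higher and 746 lower than in type I-only nuclei, 360 lower than in transitional-only nuclei and 9 higher than in both. With no minimum, 1148 were lower than in transitional-only nuclei and 42 higher than in both. The last count was 30 with the top 20% and 27 to 32 on leaving out 1 library, when fewer libraries had to agree in direction.

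The summed other type I genes, 0.864-fold of type I-only nuclei, were 0.8864 without the 10% of nuclei with the most UMIs, 0.9243 with thinned nuclei, 0.8759 with the top 20% and also with means over nuclei, 0.8914 with the top 1 in 3, 0.8859 with cuts inside each library, and 0.852 to 0.888 on leaving out 1 library. The summed other transitional genes, 0.853-fold of transitional-only nuclei, were 0.8337, 0.8476, 0.8654 and 0.8225 under the first 3 changes and the top 1 in 3, 0.8931 with 0 Sox9 UMIs, and 0.84 to 0.8712 on leaving out 1 library.

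The position on type I peaks, 56.3%, was 57.56 without the nuclei with the most UMIs, 57.25 with thinned nuclei, 52.75 with the top 20%, 60.86 with the top 1 in 3, 52.33 with 0 Sox9 UMIs, 52.09 with peaks chosen in library D and 52.81 with 2-fold peaks. On transitional peaks, 57.0%, it was 54.75, 52.82, 58.99, 52.28 and 62.36 under the first 5 of these, 57.91 with cuts inside each library and 52.28 with 2-fold peaks.

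Alternatives chosen after seeing the data weighted the comparison nuclei or left Ager out of the type I sum. Weighting to the ribosomal share gave 0.8975 for type I and 0.8725 for transitional genes, and weighting to the programme sum 0.8987 and 0.8614. Without Ager 565 nuclei were chosen, 394 of them shared (74.9% of the 526 and 69.7% of the 565), with 0.8424 and 0.9182 for the 2 lists and positions of 40.76% and 66.21% on the 2 peak sets. The cause of these shifts was not tested. Of the values of single genes under all alternatives, 412 moved by less than their counting interval and 200 by more. Depth limits genes with few UMIs, such as Pdpn, and the ATAC counts of single genes in libraries A and B. No paired analysis was possible because the libraries carry no replicate number of the labels, though the classes were compared within each library and a call needed 1 direction in all 4.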

Other observations

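Glycolysis and MHC class II genes lay nearer to transitional-only than to type I-only nuclei in the nuclei with both programmes. Over all genes, 5.62% were higher and 9.99% lower than in type I-only nuclei, and 3.14% and 6.28% against transitional-only nuclei. Of the hypoxia and glycolysis list, 9 of 12 genes were higher than in type I-only nuclei and 0 lower. In the comparison with transitional-only nuclei 0 of 14 were higher and 4 lower. Aldoa, the glycolytic aldolase, stood at 7.06, 8.37, 9.62 and 7.79 UMIs per 10000 in libraries A, B, C and D, 8.29 pooled, against 4.86 in type I-only and 8.398 in transitional-only nuclei. Eno1, an enolase, was at 3.14 against 1.65 and 3.30. Pgk1, another enzyme of glycolysis, was at 2.13 against 1.29 and 2.597 and was not called with type I-only nuclei weighted to the ribosomal share. Of the MHC class II genes, which present antigen, 0 of 7 were higher and 5 lower than in type I-only nuclei, and 0 of 6 were called against transitional-only nuclei. H2-Ab1 stood at 0.189, 0.222, 0.145 and 0.317 in the 4 libraries, 0.213 pooled, against 0.612 in type I-only and 0.150 in transitional-only nuclei, and its libraries did not overlap those of type I-only nuclei.

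Sparc, a matricellular protein gene, stood at 17.9 in these nuclei against 19.02 in type I-only and 8.36 in transitional-only nuclei, while Fn1 followed the transitional side only in part. Of the basement membrane list, 0 of 16 genes were higher and 3 lower than in type I-only nuclei, and 5 of 17 were higher and 1 lower than in transitional-only nuclei. Sorbs2, an adaptor of the actin cytoskeleton, had the lowest fold against transitional-only nuclei among called genes found in at least 20% of those nuclei, 0.0777-fold, at 0.0663 against 0.853 UMIs per 10000, with 0.101 in type I-only nuclei. It rested on 44 UMIs, and its level lay under that of transitional-only nuclei in each library. Interferon genes gave 1 of 12 higher and 0 lower than in type I-only nuclei, and Notch genes 0 of 8 in either direction. Against transitional-only nuclei 1 of 13 interferon genes was higher (Ifit2) and 1 lower (Usp18). Among 7 Notch genes 1 was higher (Hes1) and 1 lower (Jag1) than in transitional-only nuclei.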
